A study of Mus musculus with 12 samples.

Results

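The OAS, IFIT and MX genes are antiviral effector genes that interferon switches on. The 10 mouse genes described here, Oas1a, Oas2, Oas3, Oasl1, Oasl2, Ifit1, Ifit2, Ifit3, Mx1 and Mx2, were taken by symbol from the 47747 gene symbols of the count table, and all 10 had a row. They were followed in 12 C57bl/6 mice, in the membranous coverings of the brain (meninges). The 6 DSS mice had received 2% dextran sulfate sodium, a sulfated polysaccharide given to rodents to provoke colitis, in their drinking water for the first 5 days and normal water afterwards. The other 6 mice were controls, and the mice were killed on a schedule of 6 days. The labels give no age or sex. Total RNA was sequenced from stranded libraries, 1 per mouse, and the comparison asks whether colitis changes gene expression in the meninges. Each value is the level in a piece of bulk tissue, so more cells of a type and more RNA per cell cannot be told apart.

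OAS enzymes bind double-stranded RNA and then make short oligoadenylates, second messengers that lead to the breakdown of viral and cellular RNA. IFIT proteins bind RNA whose cap or end marks it as foreign and block its translation, and MX proteins are dynamin-like GTPases that trap viral nucleocapsids. All 3 families are transcribed at low level in resting cells. Type I and type III interferons raise them through a transcription factor complex that includes STAT2 and IRF9 and binds a DNA element called the interferon-stimulated response element (ISRE). Interferon gamma, the type II interferon, acts mainly through another element, the gamma-activated site (GAS).

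The members lie on 3 chromosomes of the GRCm38 (mm10) genome, as annotated in GENCODE M21. The 5 OAS members lie on chromosome 5. Oas2 spans 120730333 to 120749853, Oas3 spans 120753098 to 120777661 and Oas1a spans 120896256 to 120907521, all on the minus strand, while Oasl2 (114896936 to 114912234) and Oasl1 (114923240 to 114937915) lie apart on the plus strand. The 3 IFIT members lie on the plus strand of chromosome 19, Ifit2 from 34550694 to 34576419, Ifit3 from 34583531 to 34588731 and Ifit1 from 34640871 to 34650009. On chromosome 16, Mx1 lies on the minus strand from 97447035 to 97462907 and Mx2 on the plus strand from 97535308 to 97560900. The table sums reads over each gene and does not resolve exons or UTRs. GENCODE classes 9 members as protein coding and Mx2 as a polymorphic pseudogene, and C57BL/6 mice carry a defective Mx1 allele, so Mx1 and Mx2 are read here as transcripts only.

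RefSeq promoter windows on GRCm38.p6, from 250 bases before to 50 bases after the gene start, matched 7 of the 10 members. The windows were searched on both strands for the ISRE core GAAANNGAAA, whose other strand reads TTTCNNTTTC, and 4 members held it: Oas1a, Oas3, Ifit1 and Ifit3. Among 32851 promoter windows of the same length, 3.44% held this core. These 4 windows are printed because they carry the element through which interferon is known to act on such genes, and capitals mark the ISRE cores.
Oas1a (chr5:120907476-120907775, minus strand): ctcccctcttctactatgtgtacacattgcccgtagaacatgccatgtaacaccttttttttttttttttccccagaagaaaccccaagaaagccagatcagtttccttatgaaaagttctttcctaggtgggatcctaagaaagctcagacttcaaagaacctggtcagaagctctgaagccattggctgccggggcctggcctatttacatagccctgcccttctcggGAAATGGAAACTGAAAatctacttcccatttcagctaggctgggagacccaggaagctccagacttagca
Oas3 (chr5:120777610-120777909, minus strand): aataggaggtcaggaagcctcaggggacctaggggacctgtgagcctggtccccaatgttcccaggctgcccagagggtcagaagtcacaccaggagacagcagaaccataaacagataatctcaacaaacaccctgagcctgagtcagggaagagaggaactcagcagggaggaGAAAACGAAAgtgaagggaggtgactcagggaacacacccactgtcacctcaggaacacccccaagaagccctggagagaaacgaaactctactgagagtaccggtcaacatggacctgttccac
Ifit1 (chr19:34640639-34640938, plus strand): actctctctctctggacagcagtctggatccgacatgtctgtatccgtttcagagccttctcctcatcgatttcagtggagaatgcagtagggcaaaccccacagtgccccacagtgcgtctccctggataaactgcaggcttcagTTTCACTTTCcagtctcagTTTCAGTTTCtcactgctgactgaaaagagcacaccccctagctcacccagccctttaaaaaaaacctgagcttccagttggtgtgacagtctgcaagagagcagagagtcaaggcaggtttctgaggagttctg
Ifit3 (chr19:34583279-34583578, plus strand): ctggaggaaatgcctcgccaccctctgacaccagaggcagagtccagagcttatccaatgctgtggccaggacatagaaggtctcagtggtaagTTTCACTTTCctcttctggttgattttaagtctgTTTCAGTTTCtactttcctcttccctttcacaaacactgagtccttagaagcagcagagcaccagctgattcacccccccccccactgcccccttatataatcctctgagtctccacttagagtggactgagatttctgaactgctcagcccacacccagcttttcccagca
In Oas1a, 2 cores overlapped, starting 20 and 14 bases before the gene start, so that they print as a single run of capitals. Oas3 held 1 core, 75 bases before its start. Ifit1 held 2 separate cores, 104 and 85 bases before its start, and Ifit3 held the same pair of core sequences, TTTCACTTTC and TTTCAGTTTC, 156 and 122 bases before its start. The Ifit1 pair is shared with a neighbour: the same bases of chromosome 19, 34640785 to 34640794 and 34640804 to 34640813, lie in the promoter window of Ifit1bl2, which is transcribed the other way. The windows of Oasl1, Oasl2 and Ifit2 did not hold the core. A GAS core, TTCNNNGAA, which reads the same on both strands, stood in the Oas1a window and in 1 of the Ifit2 windows, against 8.3% of all windows. Of the 4 members with an ISRE core, Oas1a, Oas3 and Ifit3 rose in DSS mice and Ifit1 was not called, as described below. Over all tested genes, 3.68% were called higher in DSS mice. Oas2 also rose, and no window matched it. Among paralogs whose windows hold the core, Oas1g and Ifit3b rose, while Oas1c, Ifit1bl1 and Ifit1bl2 were not called. Whether the core goes with a rise was not tested. A match of letters describes the window and is not a measured binding site.

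All 10 members passed the filter on low counts. In DSS mice 4 of them rose and none fell. The risen genes were Oas1a, Oas2, Oas3 and Ifit3, with increases of 1.40-fold to 2.46-fold. Calls are at an adjusted p under 0.05 in the quasi-likelihood test of edgeR, adjusted by Benjamini-Hochberg over all 18593 tested genes, of which 4.94% were called, 3.68% higher and 1.26% lower in DSS mice. The log2 fold changes of all 10 members were positive, from 0.31 to 1.30, with a median of 0.48, beside a median of -0.022 over all tested genes. Each of the 10 also had an unadjusted p under 0.05, beside 9.77% of tested genes that had one and were higher in DSS mice and 9.19% that were lower. For 4 members every DSS mouse lay above the highest control, beside 2.23% of tested genes, and no member had every DSS mouse below the lowest control, beside 0.823% of tested genes.

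**Figure D1:**
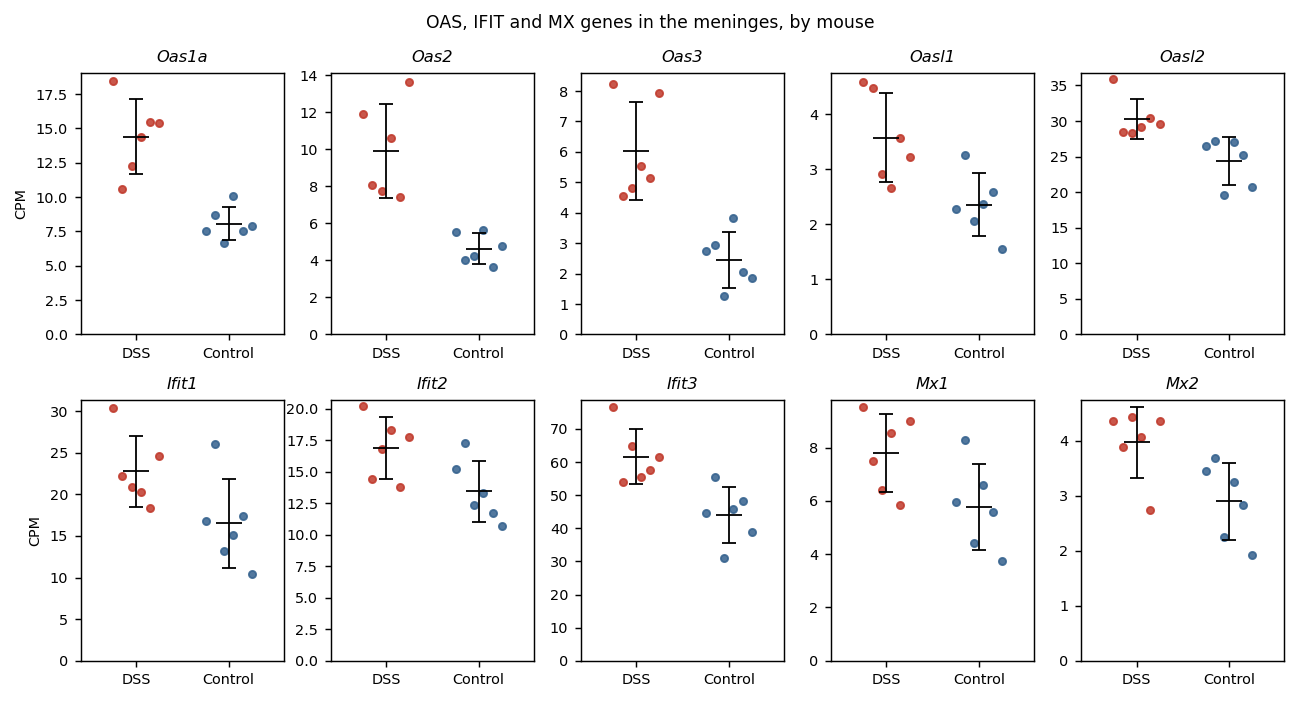
Level of each of the 10 genes in CPM in every mouse, DSS left and Control right, with mean and SD as bars (n = 6 each). The groups do not overlap for Oas1a, Oas2, Oas3 and Oasl2, and they overlap for the 6 other genes.

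The 3 classical oligoadenylate synthetase genes had the highest fold changes of the 10. Oas3, whose large enzyme senses long double-stranded RNA in human cells, had a lowest, median and highest level of 4.55, 5.34 and 8.24 CPM in DSS mice, against 1.26, 2.39 and 3.82 CPM in controls; CPM give a gene's reads relative to the TMM-scaled total of its library. The lowest DSS mouse thus lay above the highest control. Oas3 averaged 6.04 ± 1.62 CPM in DSS mice and 2.44 ± 0.910 CPM in controls (SD, n = 6 each), a 2.46-fold rise (log2 fold change 1.30 ± 0.24 SE, edgeR adjusted p = 0.00649). It rests on the fewest reads of the 3, with 62 to 238 counts in DSS libraries and 14 to 127 in control libraries.

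Oas2, which encodes the synthetase of middle size, had a lowest, median and highest level of 7.42, 9.33 and 13.6 CPM in DSS mice, against 3.64, 4.50 and 5.66 CPM in controls. The groups were again separate. Its log2 fold change was 1.08 ± 0.17 SE, a 2.12-fold rise (edgeR adjusted p = 0.00248). Within the DSS group DSS replicates 6, 1 and 4 lay at 13.6, 11.9 and 10.6 CPM and the other 3 mice between 7.42 and 8.08 CPM.

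Oas1a, the small synthetase of the cluster, had a lowest, median and highest level of 10.6, 14.9 and 18.4 CPM in DSS mice, against 6.65, 7.72 and 10.1 CPM in controls, with no overlap. It averaged 14.4 ± 2.74 CPM in DSS mice and 8.07 ± 1.20 CPM in controls (SD, n = 6 each), a 1.79-fold rise (log2 fold change 0.84 ± 0.13 SE, edgeR adjusted p = 0.00246). DSS replicate 2 was the lowest DSS mouse and lay just above Control replicate 4, the highest control. Oas1a, Oas2 and Oas3 were called with any 1 of the 12 mice left out.

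The OAS-like genes moved less and were not called. Oasl2, a mouse OAS-like protein with ubiquitin-like domains, had a lowest, median and highest level of 28.3, 29.4 and 35.9 CPM in DSS mice, against 19.6, 25.9 and 27.3 CPM in controls. Its groups did not overlap, but the gap between them was narrow and the difference small (log2 fold change 0.31 ± 0.095 SE, edgeR adjusted p = 0.0753). Oasl1, known in mouse as a translational repressor of Irf7, had a lowest, median and highest level of 2.67, 3.40 and 4.60 CPM in DSS mice, against 1.56, 2.33 and 3.27 CPM in controls. Control replicate 2, the highest control, lay above 3 of the 6 DSS mice, and the log2 fold change was 0.61 ± 0.19 SE (edgeR adjusted p = 0.0922). Neither gene passed the threshold with any 1 mouse left out.

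Of the IFIT genes, Ifit3 was called. Ifit3, which encodes a protein known in human cells to bind IFIT1 and aid its RNA binding, had a lowest, median and highest level of 54.0, 59.5 and 76.6 CPM in DSS mice, against 30.9, 45.2 and 55.5 CPM in controls. The groups overlapped: Control replicate 2 at 55.5 CPM lay above 2 DSS mice. Ifit3 rose 1.40-fold (log2 fold change 0.49 ± 0.12 SE, edgeR adjusted p = 0.0370). Ifit3 stayed under the threshold on leaving out the controls' replicate 2 or replicates 2 and 5 of the DSS mice, each alone. Leaving out any of the other 9 mice ended the call, with adjusted p between 0.0168 and 0.0817 over the 12 omissions.

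Ifit1, which binds RNA whose cap lacks the host methyl mark, had a lowest, median and highest level of 18.3, 21.5 and 30.4 CPM in DSS mice, against 10.5, 15.97 and 26.1 CPM in controls. Only DSS replicate 1 lay above the highest control, which was Control replicate 2 at 26.1 CPM; the other 5 controls lay between 10.5 and 17.4 CPM. The log2 fold change was 0.47 ± 0.18 SE with all mice (edgeR adjusted p = 0.167) and 0.66 without Control replicate 2 (edgeR adjusted p = 0.0287), the single omission under which Ifit1 was called. Ifit2, known for restricting neurotropic viruses in mice, had a lowest, median and highest level of 13.8, 17.3 and 20.3 CPM in DSS mice, against 10.7, 12.9 and 17.3 CPM in controls. Its groups overlapped (log2 fold change 0.33 ± 0.12 SE, edgeR adjusted p = 0.149).

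The MX genes did not pass the test. Mx1, whose protein is nuclear in mice with an intact allele, had a lowest, median and highest level of 5.85, 8.01 and 9.51 CPM in DSS mice, against 3.74, 5.79 and 8.30 CPM in controls, with a log2 fold change of 0.44 ± 0.18 SE (edgeR adjusted p = 0.199). Mx2, the cytoplasmic relative, had a lowest, median and highest level of 2.73, 4.21 and 4.43 CPM in DSS mice, against 1.92, 3.04 and 3.69 CPM in controls, with a log2 fold change of 0.45 ± 0.18 SE (edgeR adjusted p = 0.179). For Mx2, 5 of 6 DSS mice lay above the highest control and DSS replicate 5, at 2.73 CPM, lay below the control median. In both genes the groups overlapped.

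**Figure D2:**
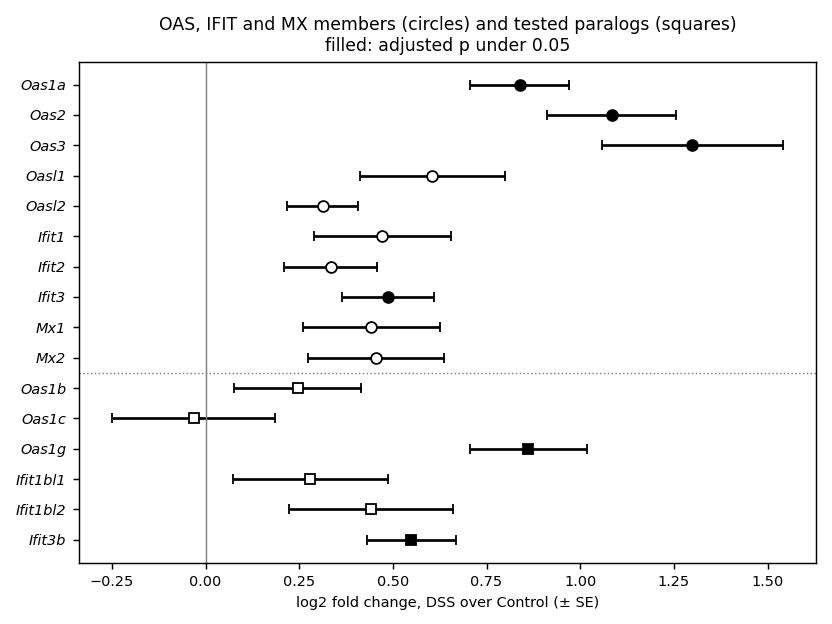
Log2 fold change, DSS over Control, with its standard error for the 10 genes (circles) and the 6 tested paralogs (squares), filled where the adjusted p was under 0.05. Oas1a, Oas2, Oas3 and the paralog Oas1g lie between 0.84 and 1.30, while the IFIT and MX members lie between 0.33 and 0.49.

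By family, the median log2 fold change was 0.84 over the 5 OAS members, 0.47 over the 3 IFIT members and 0.45 over the 2 MX members. The OAS values ranged from 0.31 for Oasl2, the lowest of the 10 members, to 1.30 for Oas3, the highest. The mean log2 CPM of the OAS members minus that of the IFIT members was -1.54 ± 0.13 in DSS mice and -1.92 ± 0.21 in controls (SD, n = 6 each), with a range of -1.77 to -1.40 in DSS mice and -2.22 to -1.62 in controls. The IFIT minus MX difference was 2.36 ± 0.15 in DSS mice and 2.37 ± 0.14 in controls. These differences are descriptions of a level averaged over the members and were not tested.

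Per kilobase of annotated exon, Ifit3 was highest, at 35.3 ± 4.78 CPM per kb in DSS mice and 25.2 ± 4.82 CPM per kb in controls (SD, n = 6 each), and in both groups its lowest mouse lay above every mouse of any other member. Ifit1, Oas1a, Oasl2 and Ifit2 followed, with means of 8.57, 7.64, 4.76 and 4.31 CPM per kb in DSS mice and 6.22, 4.28, 3.83 and 3.43 CPM per kb in controls, and each overlapped its neighbour in that order in both groups. Mouse by mouse, Oas1a lay above Oasl2 in 6 of 6 DSS mice and 5 of 6 controls. Ifit1 lay above Oas1a in 4 and 5 mice, and Oasl2 above Ifit2 in 5 and 4. Below these genes, in DSS mice, came Oas2 at 2.22, Mx1 at 2.06, Oasl1 at 1.37, Mx2 at 1.10 and Oas3 at 0.854 CPM per kb. In controls Mx1, at 1.52 CPM per kb, came before Oas2, at 1.04 CPM per kb, and Oas3 was lowest at 0.345 CPM per kb. Ranges of Oas2 and Mx1 overlapped in both groups. Within mice, Oas2 lay above Mx1 in 5 of 6 DSS mice and in 1 of 6 controls, an order that was not tested. Ifit2 lay above the gene next in order, Oas2 in DSS mice and Mx1 in controls, in every mouse, and the ranges of the remaining neighbours overlapped. Mx1 nevertheless lay above Oasl1, and Mx2 above Oas3, within each of the 12 mice.

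Some members share sequence with near copies, which limits how reads can be assigned. Of the distinct 50-base stretches in the annotated transcripts of Oas1a, 57.6% also occur in Oas1g, and 51.2% of those of Ifit3 occur in Ifit3b. For Ifit1, Mx1 and Mx2 the shared part was 7.13%, 3.91% and 4.38%, and for the 5 other members at most 0.310%. How the authors' counting treated reads that map to several places is not given in the sources used here, so Oas1a and Ifit3 are uncertain relative to their copies. Oas1g had a lowest, median and highest level of 6.09, 9.21 and 11.2 CPM in DSS mice, against 3.88, 5.01 and 6.04 CPM in controls, and rose 1.82-fold (log2 fold change 0.86 ± 0.16 SE, edgeR adjusted p = 0.00556). Ifit3b averaged 32.8 ± 4.60 CPM in DSS mice and 22.3 ± 3.85 CPM in controls (SD, n = 6 each), with a log2 fold change of 0.55 ± 0.12 SE (edgeR adjusted p = 0.0163). With the counts of each pair added together (a choice made on seeing the data) Oas1a with Oas1g gave a log2 fold change of 0.85 ± 0.13 SE (edgeR adjusted p = 0.00215) and Ifit3 with Ifit3b 0.51 ± 0.12 SE (edgeR adjusted p = 0.0232). Oasl1 exons overlap those of Gm13822 on the opposite strand, and whether the counting used strand is not given either.

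Of the 10 OAS and IFIT paralogs looked up, 6 passed the filter and 2, Oas1g and Ifit3b, rose. Oas1b, the flavivirus resistance gene, which GENCODE also classes as a polymorphic pseudogene, averaged 3.87 ± 0.539 CPM in DSS mice and 3.26 ± 0.838 CPM in controls (SD, n = 6 each; edgeR adjusted p = 0.482). Oas1c had a log2 fold change of -0.032 ± 0.22 SE, and Ifit1bl1 and Ifit1bl2 had values of 0.28 ± 0.21 SE and 0.44 ± 0.22 SE. The promoter window of Oas1c holds 2 overlapping ISRE cores, at 120812613 to 120812622 and 120812619 to 120812628 of chromosome 5. These bases also lie just before the annotated start of Oas1b, 120812635, which is transcribed the other way. Windows of Oas1g, Ifit3b, Ifit1bl1 and Ifit1bl2 hold ISRE cores as well. Oas1f had 0 counts in every library, and Oas1d, Oas1e and Oas1h had at most 2 counts in any.

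**Figure D3:**
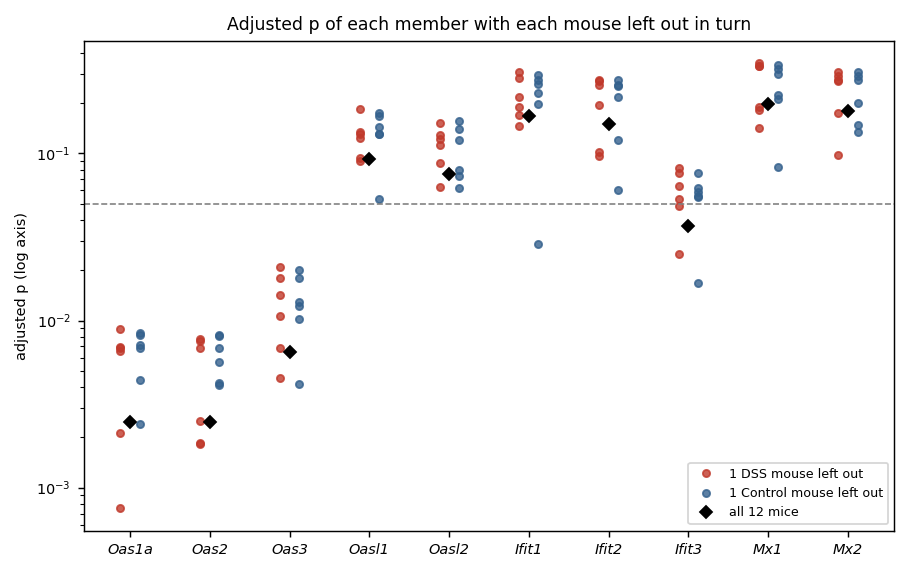
Adjusted p of each gene from edgeR with all 12 mice (diamonds) and with each mouse left out in turn (circles), on a log axis with the 0.05 threshold dashed. Oas1a, Oas2 and Oas3 stay under the line in all omissions, Ifit3 lies on both sides of it, and Ifit1 falls under it once.

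Mice differed within their groups in a way that many members shared. DSS replicate 1 was the highest DSS mouse for 8 of the 10 members, and its summed level over the 10 genes was 220 CPM, against 158 to 187 CPM in the other DSS mice. DSS replicate 5 was the lowest DSS mouse for 5 members. Among controls, Control replicate 2 was highest for 7 members and reached a sum of 157 CPM, just below the lowest DSS mouse at 158 CPM. Control replicates 3 and 6 were the lowest controls for 4 and 5 members, with sums of 97.0 and 102 CPM. The level of a member relative to its group's mean went with that of the other members across the 12 mice, least for Oas2 (Pearson r = 0.38) and most for Mx1 (r = 0.91); the members of a mouse come from the same library, so these values describe that library as well.

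By the same measure the 5 genes outside the members whose pattern across mice was most like theirs were Ltbp1 (r = 0.87), Slfn8 (r = 0.86), Trmt44 (r = 0.84), Ikzf1 (r = 0.84) and Zscan29 (r = 0.83), out of 14407 genes and over 12 mice with group means removed. Slfn8, a schlafen gene, averaged 15.4 ± 2.21 CPM in DSS mice and 12.3 ± 2.34 CPM in controls (SD, n = 6 each; edgeR adjusted p = 0.155). Ikzf1, a lymphoid and myeloid transcription factor gene, rose 1.68-fold in DSS mice (log2 fold change 0.75 ± 0.089 SE, edgeR adjusted p = 0.000382). Ltbp1, which encodes a latent TGF-beta binding protein, had a log2 fold change of -0.16 ± 0.079 SE (edgeR adjusted p = 0.294). Trmt44 and Zscan29 had log2 fold changes within 0.05 of 0. The first 20 of this order held 5 genes of the interferon lists used here, Slfn8, Gbp7, Tmem173, Tgtp2 and Gbp3. Of the first 5 genes, 1 was in those lists. The share of list genes among all 14407 was not computed. These r values are the highest of many over 12 mice, were picked for being high and were not tested.

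Around the members, 134 other genes of interferon signalling were listed and 108 of them passed the filter. In DSS mice 41 rose and none fell, beside 3.68% of tested genes called higher. The median log2 fold change of the 108 was 0.31. The count was 23 to 26 when Control replicate 3 or 5, or DSS replicate 1, 4 or 6, was left out. Called genes among all tested were also fewer under these omissions, 538 to 667 against 919 with all mice. Without Control replicates 4 and 6 they were 744 and 751. The counts of single lists under omissions, given below, come from the same fits.

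Interferon genes themselves were almost without reads. Of the 21 ligand genes, none passed the filter, and 14 had 0 counts in all 12 libraries. In a single library 3 counts, taken as the limit for a count of 0, correspond to 0.0998 to 0.220 CPM in DSS mice and 0.0647 to 0.270 CPM in controls; this covers counting error only. Ifnb1, the interferon beta gene, had 1 count in 1 DSS library and 0 counts in controls. Ifng, the interferon gamma gene, had at most 2 counts in DSS libraries and at most 4 in control libraries. A difference in these transcripts was not detectable at this depth.

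Of 6 interferon receptor genes 1 rose. Ifnar2, a subunit gene of the type I receptor, averaged 57.4 ± 5.03 CPM in DSS mice and 46.4 ± 3.39 CPM in controls (SD, n = 6 each; log2 fold change 0.31 ± 0.070 SE, edgeR adjusted p = 0.0217). Its partner Ifnar1 had a log2 fold change of 0.18 ± 0.083 SE (edgeR adjusted p = 0.249). No receptor gene was called without DSS replicate 4, or with all mice when the filter on low counts was reduced to 1 count, and without DSS replicate 2 the count was 4.

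Downstream of the receptors 5 of 12 transducer genes rose. Irf7, the inducible factor that amplifies type I interferon transcription, averaged 26.0 ± 4.13 CPM in DSS mice and 16.7 ± 2.44 CPM in controls (SD, n = 6 each), with all DSS mice above the highest control (1.55-fold, edgeR adjusted p = 0.00653). Irf1, a target of interferon gamma, rose 1.42-fold and Irf5, a factor of myeloid cells, 1.52-fold. Irf9 rose 1.23-fold. Stat2, a subunit gene of the complex that binds the ISRE, had a log2 fold change of 0.10 ± 0.093 SE (edgeR adjusted p = 0.626). The count of risen transducer genes was 3 without Control replicates 3 or 5, and likewise without DSS replicates 1, 4 or 6.

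Of the 4 genes listed as effector and control genes of the OAS pathway 0 were called by edgeR, with 0 at an unadjusted p under 0.05, and DESeq2 and limma also called 0. Of these, Abce1, a ribosome recycling factor gene, Pde12, which encodes an oligoadenylate-degrading enzyme, and Adar, which edits double-stranded RNA, had log2 fold changes between -0.091 and 0.084.

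Of 14 RNA and DNA sensor genes 4 rose. Zbp1, a sensor of nucleic acid in the Z form, averaged 8.23 ± 1.11 CPM in DSS mice and 4.14 ± 0.844 CPM in controls (SD, n = 6 each; edgeR adjusted p = 0.00161). Tlr9, the endosomal DNA receptor gene, rose 1.95-fold. Tmem173, the STING gene, rose 1.41-fold and Ddx58, the RIG-I gene, 1.18-fold. The count was 2 without Control replicates 3, 5 or 6, and likewise without DSS replicates 1, 4 or 6.

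Of 43 tested other genes stimulated by type I interferon 13 rose, with a median log2 fold change of 0.31. Ifi27l2a rose 1.69-fold, Epsti1 1.48-fold, Sp100, a nuclear body gene, 1.45-fold, Xaf1, a pro-apoptotic gene, 1.40-fold and Dtx3l, a ubiquitin ligase gene, 1.36-fold. For Isg15, which encodes a ubiquitin-like modifier, the log2 fold change was 0.48 ± 0.16 SE (edgeR adjusted p = 0.0977). Usp18, whose product removes ISG15 and damps the receptor, had a value of 0.23 ± 0.14 SE (edgeR adjusted p = 0.3995). The count of risen genes was 7 to 8 without Control replicates 3, 4, 5 or 6, and likewise without DSS replicates 1, 4 or 6.

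Of 23 genes that respond to type II interferon 16 rose, with a median log2 fold change of 0.48. Tgtp1 and Tgtp2, near-identical GTPase genes whose reads may be shared, rose 1.62-fold and 1.65-fold, Gbp5, a guanylate-binding protein gene, 1.63-fold, and the immunity-related GTPase genes Irgm2 and Irgm1 1.51-fold and 1.40-fold. The count was 9 or 10 when Control replicate 3 or 5, or DSS replicate 1, 4 or 6, was left out. Whether the type I and type II lists differ was not tested, and many genes answer to both interferons.

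**Figure D4:**
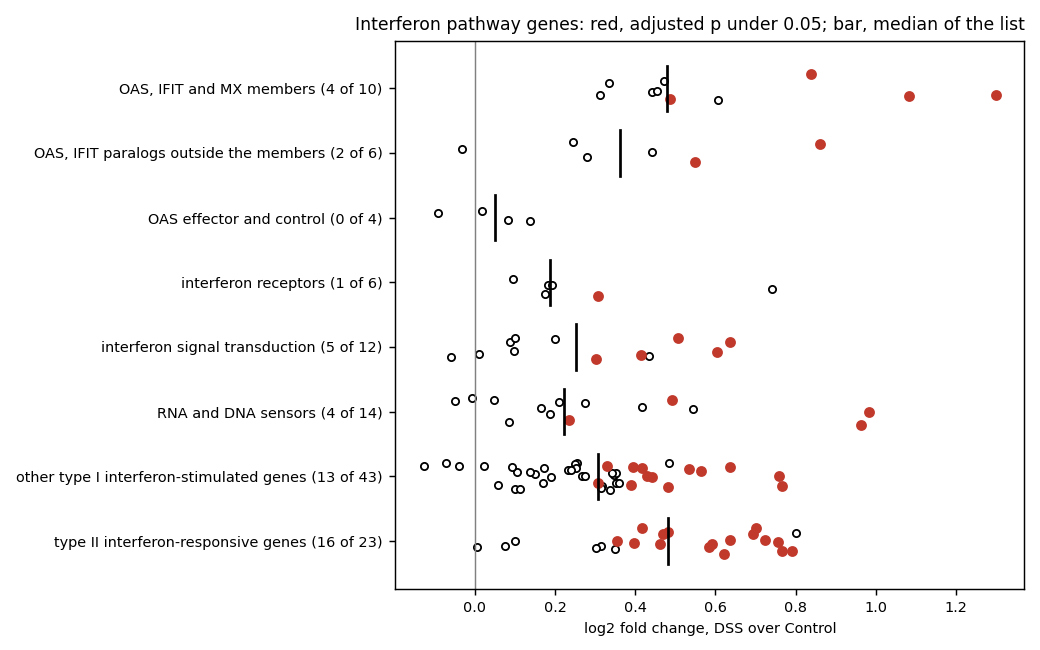
Log2 fold change, DSS over Control, of every tested gene in the 10-gene set and 7 interferon lists, red where the adjusted p was under 0.05, with the list median as a bar and the number risen of those tested in brackets. Oas2 and Oas3 are the rightmost points, and the effector and control genes lie near 0.

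All 15 tested neutrophil markers of 16 listed rose, with a summed level of 266 to 1425 CPM in DSS mice and 70.4 to 204 CPM in controls. All 6 tested granulocyte precursor markers rose, and their sum was 12.8 to 97.0 CPM in DSS mice and 3.15 to 9.56 CPM in controls. Of 10 classical monocyte markers 6 rose and 4, Vcan, F13a1, Fn1 and S100a4, were not called. The sum of the 10 was 709 to 1058 CPM in DSS mice and 600 to 805 CPM in controls, overlapping ranges in which Fn1 alone averaged 483 CPM in DSS mice and 495 CPM in controls. DSS replicate 3 stood apart: its neutrophil sum was 266 CPM, against 1087 to 1425 CPM in the other DSS mice. Its classical monocyte sum, 709 CPM, was the lowest of the DSS mice, and its T and NK cell sum, 39.9 CPM, the highest. In that mouse the summed level of the OAS, IFIT and MX genes was 169 CPM, below DSS replicates 1 and 6 only. Of this sum, Ifit3 made up 64.8 CPM. Averaged as log2 CPM over the 10 genes, its level was 3.47, above DSS replicate 5 only, at 3.40. Oas1a, Oas2 and Oas3 stood at 12.2, 7.74 and 4.82 CPM, above every control. Among DSS mice these values lay above replicate 2 only for Oas1a and Oas3, and above replicate 5 only for Oas2. Without DSS replicate 3 those 3 members were called and Ifit3 was not (edgeR adjusted p = 0.0643). Among controls, Control replicate 2 had both the highest neutrophil sum, 204 CPM, and the highest sum of the OAS, IFIT and MX genes, 157 CPM.

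Of 10 border-associated macrophage markers 2 rose, Clec4n and Siglec1, with a sum of 550 to 1026 CPM in DSS mice and 583 to 690 CPM in controls. The plasmacytoid dendritic cell markers, genes of a cell type known for making interferon alpha, summed to 32.5 to 42.7 CPM in DSS mice and 36.0 to 42.3 CPM in controls, and 1 of 8 rose, Lair1, which other leukocytes express too. None of 12 T and NK cell markers was called (edgeR, with 1 at an unadjusted p under 0.05), at sums of 22.8 to 39.9 CPM in DSS mice and 18.96 to 32.0 CPM in controls. Of 9 bone markers 4 fell, Ibsp, Acp5, Ctsk and Mmp9, and 1 of 12 fibroblast markers fell, Aldh1a2. The part of these cells in the level of the members was not tested.

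**Figure D5:**
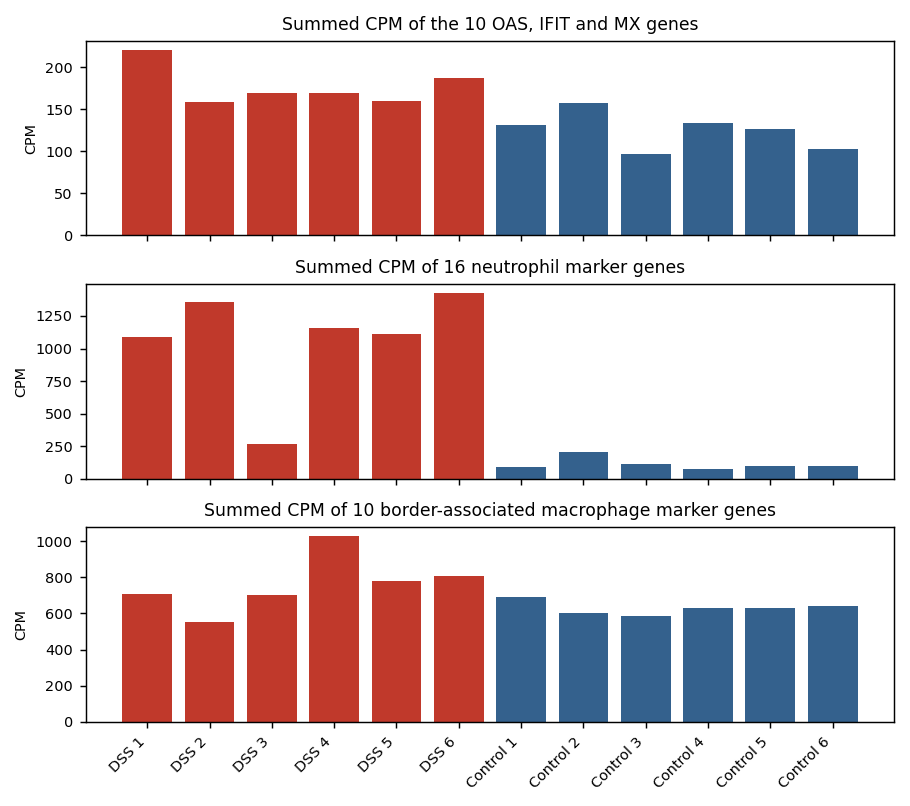
Summed CPM by mouse of the 10 OAS, IFIT and MX genes (top), 16 neutrophil markers (middle) and 10 border-associated macrophage markers (bottom), DSS mice left and controls right. DSS replicate 3 has the lowest neutrophil sum of the DSS mice, 266 CPM, while its antiviral sum of 169 CPM lies within the DSS range. Control replicate 2 has the highest neutrophil sum, 204 CPM, and the highest antiviral sum, 157 CPM, of the controls.

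The libraries held 13078923 to 28544877 counts in DSS mice and 9312788 to 41869997 counts in controls. The labels give colon as the source while titles and extraction name meninges. Fibroblast markers summed to 11716 to 22368 CPM in DSS mice and 12942 to 19931 CPM in controls, while colon epithelium markers summed to 5.14 to 12.8 CPM in DSS mice and 4.84 to 8.03 CPM in controls, and of these Cdx2 and Fabp2 were at 0 counts throughout. In Control replicate 2, the ribosomal RNA feature Rn18s-rs5 took 32.3% of counts, and its library scaling factor was 0.426, against 1.04 to 1.18 in DSS mice and 0.914 to 1.20 in the other controls. Skeletal muscle markers summed to 217 CPM in DSS replicate 2, against 10.4 to 24.5 CPM in the other DSS mice and 16.1 to 25.1 CPM in controls. With both of these libraries left out, 6 members rose, Ifit1 and Ifit2 in addition to the 4. Calls over all genes were also more numerous then, 1152 of 18727 tested, against 919 of 18593 with all mice.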

How the data were processed

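Meningeal RNA of 12 mice was sequenced after stranded total RNA library preparation, per the labels' protocols. The submitters' processing notes name the tools CASAVA, FastQC, Trim Galore, HISAT2, featureCounts and the build mm10. The sources used here do not give versions, annotation, strand setting or the handling of multi-mapping reads. The main deposited table has raw counts by gene symbol. A second deposited table has a normalized signal, in which every count column is divided by a single number, equal to the median-of-ratios size factor of that library. Table headings matched the sample descriptions. Of 47747 symbols, 45251 (94.8%) were in GENCODE M21.

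The counts were analysed with edgeR 4.0.16 under R 4.3.3. Genes passed filterByExpr at its minimum count of 10 and total of 15, libraries were scaled by TMM, and treatment was the only model term. The quasi-likelihood F-test was two-sided with Benjamini-Hochberg adjustment over 18593 genes. The SE was derived as |log2 fold change| divided by the root of F. A prior count of 2 was used for log2 CPM. The p-values set the difference between the groups against the spread between mice. The labels give no batch. Some results are not reported here, although counts over lists include them. The members and gene lists were chosen with earlier results of these data known. The genes named were the members, their paralogs, up to 5 called genes of lowest p in each pathway list, preset signalling genes and the 5 genes most like the members. Depth was 9312788 to 41869997 counts per mouse. Alternatives used DESeq2 1.42.0, limma 3.58.1 (voom with quality weights, or trend on log2 of the deposited signal plus 1), other filters, the replicate block, an adjusted p under 0.1 and left-out mice. The fitting code was tested on simulated data. There 42% of 50 genes changed 1.5-fold and 70% of 50 changed 2-fold were called in the right direction. Of 18393 unchanged genes 4 were called. Small changes can thus be missed. No libraries of a group agreed within sampling noise (30 pairs, lowest chi-square per degree of freedom 19.3).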

Additional observations from a re-analysis of the deposited data

Results flagged for a closer look

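For the 10 members and 7 marker sums, each group of 6 mice was searched for a single mouse far from the others; chance flags about 1 in 20 groups, and 5 of 34 were flagged. Oasl2 was at 35.9 CPM in DSS replicate 1, against 28.3 to 30.4 CPM in the other DSS mice. Mx2 was at 2.73 CPM in DSS replicate 5, against 3.89 to 4.43 CPM in the other DSS mice. The neutrophil marker sum was 266 CPM in DSS replicate 3, against 1087 to 1425 CPM in the other DSS mice, and 204 CPM in Control replicate 2, against 70.4 to 113 CPM in the other controls. The skeletal muscle marker sum was 217 CPM in DSS replicate 2, against 10.4 to 24.5 CPM in the other DSS mice.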

How the results depend on the processing

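All 220 values of the members under the 22 alternatives were positive. Oas1a, Oas2 and Oas3 were called under each of the 22, Ifit3 under 12, Oasl2 under 3, Oasl1 and Ifit1 under 2 each, Ifit2 under 1 and Mx1 and Mx2 under 0 (lowest adjusted p 0.0831 and 0.0975). Of the 22, the adjusted p under 0.1 reused the main fit, so its values repeated the main ones and no call could be lost. It gave 1 of the 2 calls of Oasl1 and 1 of the 3 of Oasl2. The number of risen members was 3 to 5 over the 12 single omissions and 6 with the DESeq2 Wald test (Oasl1 and Oasl2 in addition), and their median log2 fold change 0.42 to 0.62. The number of called genes among all tested was 538 to 1379 over the omissions, 1554 with the DESeq2 Wald test and 1641 at an adjusted p under 0.1, against 919; the number of risen pathway genes was 23 to 50 over the omissions, against 41. The paralog Oas1c changed sign at 0.0016 with the DESeq2 Wald test, 0.030 with limma-voom, 0.16 without both libraries numbered 2, and lay between -0.14 and 0.13 over the omissions (0.0021 without Control replicate 4, 0.020 and 0.026 on leaving out DSS replicates 2 and 3); it was called under no setting. The cause was not tested. Same-numbered mice did not deviate together: 1 of 6 pairs had a correlation over 0.1. With the replicate block 708 genes and 3 members were called, Ifit3 having an adjusted p of 0.0834, and 31 pathway genes rose. Low counts limit the precision of Oas3 (14 to 127 in controls) and Oasl1 (23 to 106 in controls). With near-identical copies summed, the paralogs Oas1g and Ifit3b have no value of their own, and the values counted for Oas1a and Ifit3 are those of the pairs.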
